A study of Mus musculus with 29 samples.

Results

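Gene expression was compared between spleens of MLL-ENL-ERtm mice at the terminal stage of disease and spleens of the same genotype at the early stage, with 3 arrays on each side, chosen by the stage in their labels. These are 6 of the 29 arrays of the series and 6 of its 14 spleen arrays. The mice express MLL-ENL, a leukaemia fusion of MLL (gene Kmt2a) with ENL (gene Mllt1), joined to a modified hormone-binding part of the estrogen receptor, so that the fusion protein works only while tamoxifen is given. Every mouse, wild type included, received tamoxifen in its chow at 300 mg per kg. The early spleens were taken after 7 months of tamoxifen, and the terminal spleens after 21, 23 and 19 months (terminal 1, 2 and 3). Beside them stand 3 progression spleens of the same genotype at 10, 10 and 9 months and 5 wild-type spleens at 24, 8, 9, 11 and 11 months (wild type 1 to 5). The labels describe the early stage as one of proliferation with a DNA damage response, and the terminal stage as proliferating with little or no such response and free of senescence. The arrays are called biological replicates, and no strain, sex or clone is given. Age and months of tamoxifen differ between the stages with no overlap, and within MLL-ENL-ERtm mice stage and time cannot be told apart.

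The mouse spleen makes red cells throughout adult life, and it does so more strongly under stress or when disease crowds the marrow. Erythroblasts are set up by the transcription factors Gata1, Tal1 and Klf1, which switch on haem synthesis, the membrane skeleton and the blood group proteins in late maturation. MLL-ENL drives a myeloid programme through genes such as Hoxa9 and Meis1, and in these mice it causes a myeloproliferative disease. A whole spleen also holds B and T cells in its follicles, macrophages, platelets and their precursors, vessels and stroma. In such bulk samples fewer cells of a type and less RNA per cell cannot be told apart.

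The values are the authors' log2 levels of probe sets, and a gene is represented by the brightest probe set with its symbol, which gave 12394 genes. Ms4a1, the B cell surface protein CD20, had levels of 12.79 to 13.03 in wild-type spleens. It marks B cells, which a spleen holds, and does not by itself define spleen. The third early array stood apart from the other two. Its correlation over probe sets was 0.978 with early 1 and 0.977 with early 2, which correlated at 0.992 with each other, and 0.980 to 0.982 with the terminal arrays. Xist, which marks female cells, was high in early 1 and in all 3 terminal arrays, and low in early 2, early 3 and all 3 progression arrays. Between terminal and progression spleens stage and sex therefore cannot be told apart, and between terminal and early spleens they overlap in part. The mean level of pancreas genes, relative to wild type, was 0.42 in early 1 against -1.12 and -1.42 in early 2 and 3. The difference between 3' and 5' Gapdh control probe sets, a sign of RNA quality, was 0.60, 1.07 and 0.03 in the early arrays and -0.00, 0.12 and 0.44 in the terminal arrays.

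Terminal spleens differed from early spleens in 819 of 12394 genes, or 6.61% of those tested (limma, adjusted p under 0.05). Of these, 338 genes (2.73%) were higher and 481 (3.88%) lower in terminal spleens. The falls were larger than the rises: 283 of the lower genes changed at least 2-fold, against 40 of the higher genes. The median difference over all genes was 0.02. In 795 of the called genes the terminal and early arrays did not overlap; over all genes tested, 13.8% had every terminal array above every early array and 11% had every one below. Between early and progression spleens 0 genes (0%) passed limma's threshold, with 470 higher and 440 lower at an unadjusted p under 0.05, while 317 genes (2.56%) were higher and 409 (3.3%) lower in terminal than in progression spleens. These comparisons share arrays.

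**Figure D1:**
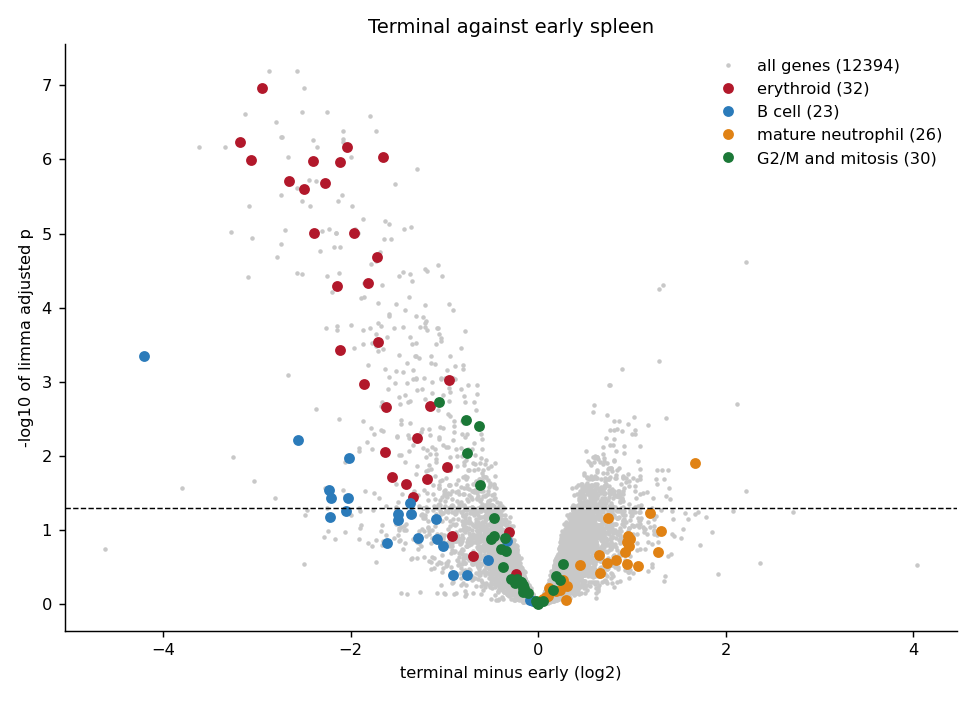
Each point is a gene, with the terminal minus early difference (log2) on the x axis and -log10 of limma's adjusted p on the y axis; the dashed line is the 0.05 threshold. Erythroid genes (red) lie on the lower side, with 28 of 32 past the threshold; of the B cell genes (blue) 7 of 23 passed, of the mature neutrophil genes (orange) 1 of 26 and of the G2/M genes (green) 5 of 30.

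The counts moved with individual arrays. Without early 3 the model called 1148 genes (9.26%) higher and 1009 (8.14%) lower. Without early 1 it called 63 and 311, without early 2 41 and 273, without terminal 1 151 and 364, and without terminal 2 134 and 318. Leaving out wild type 2, 3, 4 or 5, which enter only through the shared estimate of the spread, gave 222, 221, 216 and 210 higher genes. With months of tamoxifen as covariate, 36 genes (0.29%) were higher and 146 (1.18%) lower. Months vary most within the wild-type group, so the slope rests largely on wild type 1, at 24 months against 8 to 11. Here and below, this fit cannot separate stage from time.

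Of the 72 genes named here by a rule of size or p that passed the threshold, 32 kept the call whichever array was left out. Besides 6 erythroid genes (Alas2, Epb42, Slc4a1, Trim10, Tspo2 and Urod) these were, among the falls, Fn3k, Tmod1, Cd36, Cdr2, Sox6, Sowaha, Dmtn, Gch1, Cr2, Ebf1, Aqp1, Rsad2, Lmo2, Sesn1, Rb1, Cenpf, Nusap1 and Ube2c. Among the rises they were Grb14, Klra17, Sh2b2, Rpl37, Rin2, Xdh, Mdm2 and Slc11a1. The other 40 lost the call in at least 1 such fit, 38 of them without early 2, 36 without early 1, 29 without terminal 2, 25 without terminal 3 and 19 without terminal 1, with adjusted p of at most 0.216. None of the 72 changed sign.

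Red cell genes were the group with the most members past the threshold. Of 32 erythroid genes measured, 28 fell in terminal spleens, none rose, and all 32 differences were below 0. The median difference was -1.71, from -3.17 for Alas2 to -0.24 for Hba-a1, beside 0.02 over all genes and a background of 3.88% of genes called lower. In 29 of the 32 the terminal arrays lay below all early arrays, beside 11% of all genes. Relative to the wild-type mean, the mean level of the list was 0.19, 0.34 and -0.05 in the early arrays and -1.47, -1.95 and -1.34 in the terminal arrays. Every terminal array was thus below every early array, and early 3, which stood apart in other lists, stayed near the other early arrays here. The count of lower genes was 15 of 32 with months of tamoxifen as covariate, 17 in a fit of the 6 arrays and 16 in a fit over 29 arrays. Of all genes these fits called 1.18%, 1.79% and 2.74% lower. Over these fits and a fit of Xist-high arrays alone, the medians ran from -1.47 to -1.89. In the Xist-high fit early 1 was the only early array, so its counts are not given.

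**Figure D2:**
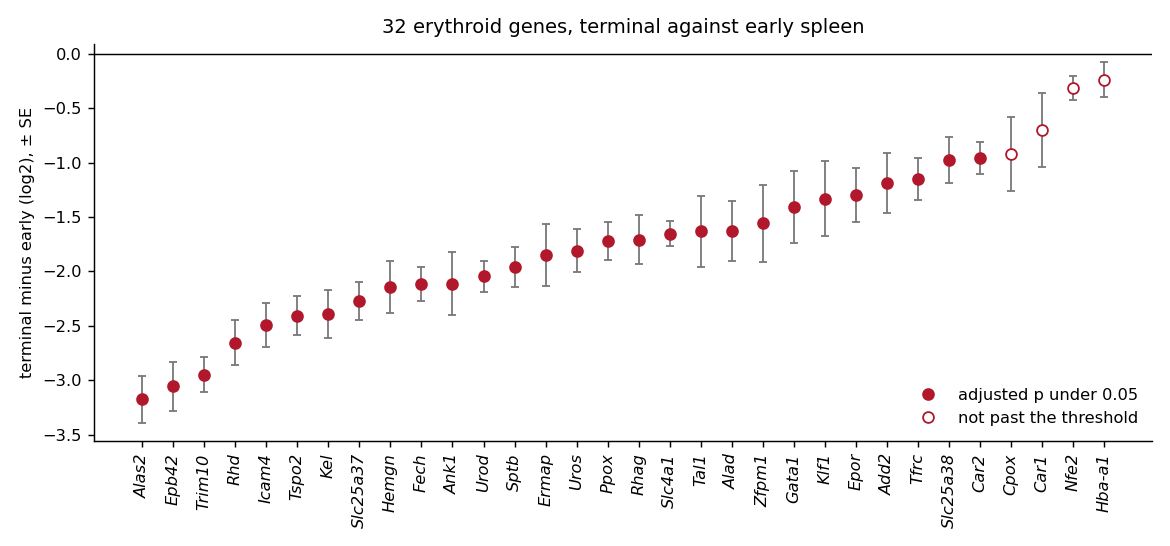
The terminal minus early difference (log2, bars ± SE of the limma fit) of each measured erythroid gene, ordered by size; filled points passed the threshold and open points did not. All 32 points lie below 0, and Nfe2, Cpox, Car1 and Hba-a1 did not pass.

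Genes of the regulators of the erythroid programme fell, by 1.30 to 1.63 on the log2 scale for the 5 of 6 that passed. Of all genes 3.88% were called lower. Gata1, the factor that opens the erythroid programme, had levels of 10.48, 10.61 and 9.77 in early spleens and 9.10, 7.95 and 9.59 in terminal spleens. It fell by 1.41 ± 0.33 (SE), with adjusted p = 0.0241; early 3, the lowest early array, and terminal 3, the highest terminal array, lay close to each other. Klf1, which switches on globin and membrane genes, was at 12.37, 12.39 and 11.27 in early spleens and 11.10, 9.79 and 11.14 in terminal spleens. It fell by 1.33 ± 0.35 (adjusted p = 0.0355), again with early 3 and terminal 3 close to each other. Epor, the receptor for erythropoietin, fell by 1.30 ± 0.25 (adjusted p = 0.00582). Tal1, a partner of Gata1, fell by 1.63 ± 0.33 (adjusted p = 0.00875). Zfpm1, the Gata1 cofactor FOG1, fell by 1.56 ± 0.35 (adjusted p = 0.0192). Nfe2, a factor shared with megakaryocytes, differed by -0.31 ± 0.11 and did not pass (adjusted p = 0.107), although its arrays did not overlap.

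Genes of haem synthesis enzymes fell further than those of the regulators in the median, -1.81 for 7 enzymes against -1.37 for 6 regulators. The difference between the groups was not tested. Alas2, the erythroid enzyme of the first step, had levels of 12.92, 13.06 and 13.21 in early spleens and 9.61, 10.49 and 9.56 in terminal spleens. The stages were far apart beside the spread within each, and Alas2 fell by 3.17 ± 0.21, or 9.03-fold (adjusted p = 5.84e-07). Urod, a later enzyme of the pathway, stood at 11.30, 11.43 and 11.38 in early spleens and at 9.42, 9.06 and 9.49 in terminal spleens, 4.12-fold lower (adjusted p = 6.70e-07). Fech, which inserts iron into the ring, fell by 2.12 ± 0.16. Uros, Ppox and Alad, enzymes of other steps, fell by 1.81 ± 0.20, 1.72 ± 0.17 and 1.63 ± 0.27. Cpox differed by -0.92 ± 0.34 and did not pass (adjusted p = 0.119); its early level was 9.36 in early 3 against 10.68 and 10.37 in early 1 and 2. Slc25a37, the mitoferrin that brings iron into mitochondria, fell by 2.27 ± 0.18, and Tfrc, the transferrin receptor, by 1.15 ± 0.19. Hba-a1 lay between 3.88 and 4.60 in all 6 arrays, below the lower quartile of the probe sets' levels, so the array gave no measure of globin through it.

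**Figure D3:**
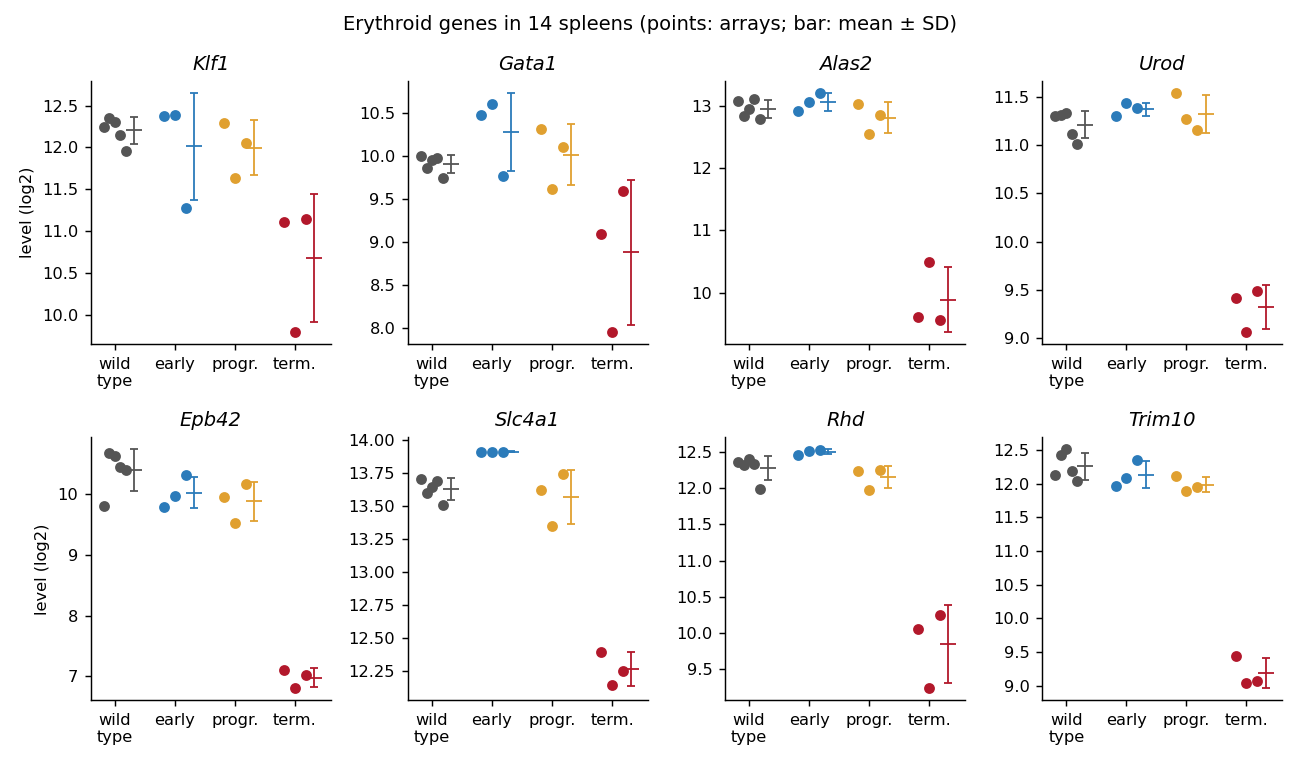
Level (log2, axes differ between panels) of 8 erythroid genes on each of 14 spleen arrays, with mean ± SD beside the points. Alas2, Urod, Epb42, Slc4a1, Rhd and Trim10 were near the wild-type level in early and progression spleens and lower on all 3 terminal arrays, while Klf1 and Gata1 differed less.

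Genes of red cell membrane and surface proteins fell in all 10 members measured, beside 3.88% of all genes called lower. Epb42, which ties the skeleton to the anion exchanger, had levels of 9.80, 9.98 and 10.31 in early and 7.11, 6.80 and 7.02 in terminal spleens, 8.32-fold lower (adjusted p = 1.02e-06). Slc4a1, the anion exchanger band 3, was at 13.91 in all 3 early arrays and at 12.39, 12.14 and 12.25 in terminal arrays, 3.14-fold lower. Both genes showed groups far apart with little spread within a stage. Rhd, the Rh blood group protein, was at 12.46, 12.51 and 12.53 in early and 10.05, 9.23 and 10.25 in terminal spleens, and fell by 2.66 ± 0.21. Icam4 and Kel, the Landsteiner-Wiener and Kell blood group proteins, fell by 2.49 ± 0.20 and 2.39 ± 0.22. Ank1 and Sptb, ankyrin and beta spectrin, fell by 2.11 ± 0.29 and 1.96 ± 0.18, and Add2, beta adducin, by 1.19 ± 0.27. Trim10, a RING protein of terminal erythroid maturation, was at 11.96, 12.08 and 12.35 in early and 9.44, 9.04 and 9.07 in terminal spleens, 7.72-fold lower with the smallest adjusted p of the list (1.10e-07). Tspo2, an erythroid relative of the mitochondrial translocator protein, fell by 2.41 ± 0.18. The 6 erythroid genes with the smallest p (Trim10, Alas2, Urod, Slc4a1, Epb42 and Tspo2) stayed past the threshold under all alternatives in which they were tested.

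The promoters of the erythroid genes that fell were read for the short motif bound by Gata1. RefSeq start sites on GRCm38.p6 were at hand for 23 of the 28 erythroid genes that fell. Within 250 bases before the start, 14 of the 23 (60.9%) held, on either strand, the letters GATA with A or T before them and A or G after them, beside 22.8% of the 9888 measured genes with a promoter. Of its forms, AGATAA was in 8 of the 23 (34.8%, against 8.59%), TGATAA in 6 (26.1%, against 5.74%), AGATAG in 2 (8.7%, against 7.46%) and TGATAG in none (5.28% of measured genes). CCACACCC, a form of the Klf1 motif, was in none (4.34% of measured genes), and CCGCCC, a GC box, in 12 (52.2%, against 57%). A match describes letters and not a bound site. The genes were listed for being erythroid, and the share among erythroid genes that did not fall was not read. Whether the motif has a part in the falls was not tested. The promoters of Alas2, Epb42 and Trim10, the 3 list members that fell most, are shown 5′ to 3′ along the gene's strand, with the GATA match in capitals. Each held 1, read as AGATAA on the other strand, starting 86 bases before the start site in Alas2, 226 in Epb42 and 163 in Trim10.
Alas2, chrX:150547167-150547416, plus strand: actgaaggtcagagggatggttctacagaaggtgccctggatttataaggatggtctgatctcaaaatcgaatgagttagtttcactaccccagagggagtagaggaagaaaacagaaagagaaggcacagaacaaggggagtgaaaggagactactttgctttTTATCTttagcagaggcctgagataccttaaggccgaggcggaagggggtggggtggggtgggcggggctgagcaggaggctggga
Epb42, chr2:121036878-121037127, minus strand: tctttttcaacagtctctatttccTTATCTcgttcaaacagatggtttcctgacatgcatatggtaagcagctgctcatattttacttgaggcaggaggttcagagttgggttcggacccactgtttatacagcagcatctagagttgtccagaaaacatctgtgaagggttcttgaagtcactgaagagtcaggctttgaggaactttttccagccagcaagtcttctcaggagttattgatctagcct
Trim10, chr17:36869324-36869573, plus strand: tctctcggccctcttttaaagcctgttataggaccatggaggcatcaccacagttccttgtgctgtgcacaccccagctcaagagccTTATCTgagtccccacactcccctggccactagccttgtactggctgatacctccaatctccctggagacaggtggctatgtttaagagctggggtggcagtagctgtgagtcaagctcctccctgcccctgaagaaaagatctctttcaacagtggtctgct

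Set beside wild type, the same 32 genes had a median of 0.19 in early spleens, with 2 genes higher and none lower, beside 7.35% and 8.55% of all genes. In terminal spleens the median was -1.60, with 28 lower, beside 16.3% of all genes. Terminal spleens had 25 of the 32 genes lower than progression spleens (median -1.53), beside 3.3% of all genes called lower. Between progression and early spleens none of the 32 passed limma's threshold, beside 0% of all genes. There the median was -0.19, with 4 of the 32 lower and 0 higher at an unadjusted p under 0.05, beside 440 and 470 of the 12394 genes. Wild type 1, at 24 months the mouse longest on tamoxifen, gives a level at a like time, with no test on 1 array. Its Alas2 level was 13.08, within the 12.78 to 13.12 of the other wild-type spleens, and its erythroid list differed from their mean by a median of 0.07. In 27 of the 32 genes all 3 terminal arrays lay below all 5 wild-type arrays, beside 18.2% of all genes.

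Among the 15 largest falls outside the list were further genes known from red cells. Tmod1, tropomodulin, which caps the actin filaments of the red cell skeleton, was at 9.86, 9.75 and 10.66 in early and 6.53, 6.91 and 6.82 in terminal spleens, 10.1-fold lower. Dmtn, the actin-bundling protein dematin, fell by 3.05 ± 0.29. Sox6, a transcription factor of erythroid maturation, was at 10.11, 10.27 and 9.80 in early and 7.19, 6.56 and 7.12 in terminal spleens, 8.57-fold lower. Fn3k, a kinase that removes sugar adducts from proteins, was at 9.69, 9.91 and 9.13 in early and 5.45, 6.10 and 6.33 in terminal spleens, 12.3-fold lower (adjusted p = 6.70e-07). Cd36, a fatty acid and thrombospondin receptor of erythroblasts, macrophages, platelets and vessels, was 9.65-fold lower. The stages did not overlap in these 5 genes, which were picked for their large falls, nor in 795 of the 819 genes called. Of all genes 11% had every terminal array below every early array. Cdr2 fell by 3.12 ± 0.19, Gch1, the first enzyme of tetrahydrobiopterin synthesis, by 2.87 ± 0.14, and Sowaha by 3.08 ± 0.26. Tspan8, a tetraspanin, was at 9.63, 10.12 and 10.43 in early and 2.99, 7.44 and 8.36 in terminal spleens; terminal 1 lay far below the others, and without it the difference was -2.16 ± 0.30 in place of -3.80 ± 0.92. The call of Tspan8 was lost without early 1 or early 2, and its 3 other probe sets differed by -2.34 ± 0.35, -1.23 ± 0.18 and -0.72 ± 0.16. Igfbp7, a secreted growth factor binding protein made by vessels, was at 10.50, 9.78 and 6.69 in early and 6.32, 6.21 and 5.37 in terminal spleens, and the other probe sets of Igfbp7 differed by -0.74 ± 0.23 and -0.33 ± 0.16, the first of them dim. Ackr3, an atypical chemokine receptor, was at 7.99, 8.24 and 4.75 in early and 3.88 to 4.35 in terminal spleens. For Igfbp7 and Ackr3, early 3 sat near the terminal arrays.

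B cell genes were lower in terminal spleens in 7 of 23 members, with none higher and a median of -1.37. All 23 differences were below 0, and in 14 every terminal array lay below every early array. Of all genes 3.88% were called lower and 11% had every terminal array below. Cr2, the complement receptor of mature B cells and follicular dendritic cells, had the largest fall of the named genes past the threshold. It went from 9.74, 10.25 and 8.01 in early to 5.85, 4.37 and 5.19 in terminal spleens (-4.20 ± 0.58, adjusted p = 0.000443). The terminal mean was dim, so no fold is given. Ms4a1 was at 11.39, 11.68 and 10.48 in early and 10.07, 7.58 and 9.22 in terminal spleens, 4.69-fold lower (adjusted p = 0.0285). Bach2, a repressor of B cell differentiation into plasma cells, fell by 2.03 ± 0.53. Ebf1, a B lineage factor, Fcer2a, the low-affinity IgE receptor, and Cxcr5, the receptor that brings B cells into follicles, fell by 2.56 ± 0.49, 2.02 ± 0.42 and 2.21 ± 0.58. Ighm, the IgM heavy chain, differed by -0.09 ± 0.29.

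The B cell level was already low at the early stage. Relative to wild type, 18 of 23 B cell genes were lower in early and 22 in terminal spleens, with medians of -1.77 and -3.30, beside 8.55% and 16.3% of all genes called lower. The mean of the list, relative to wild type, was -1.49, -1.19 and -2.27 in early, -2.94, -2.33 and -1.31 in progression and -2.57, -3.98 and -2.84 in terminal spleens. Progression spleens ranged across both stages. Without early 3, which had the lowest early level, 13 of 23 genes were lower, beside 8.14% of all genes; with months of tamoxifen as covariate limma called none (2 lower at an unadjusted p under 0.05), at a median of -1.08. Wild type 1 at 24 months differed from the other wild-type spleens by a median of 0.02 in these genes. Of 24 T cell genes only Ccr7, the receptor for homing into T zones, passed (-1.32 ± 0.35, adjusted p = 0.0380), at a list median of -0.41. The 1 of 24 stands beside 3.88% of all genes called lower. T cell genes too were already low at the early stage. Relative to wild type, 21 of the 24 were lower in early and 21 in terminal spleens, with medians of -1.45 and -1.83. Il7r, the interleukin 7 receptor, and Jchain, the joining chain of secreted antibodies, fell by 0.97 ± 0.25 and 1.15 ± 0.26, the single genes past the threshold among 7 B precursor and 12 plasma cell genes, beside the same 3.88%.

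**Figure D4:**
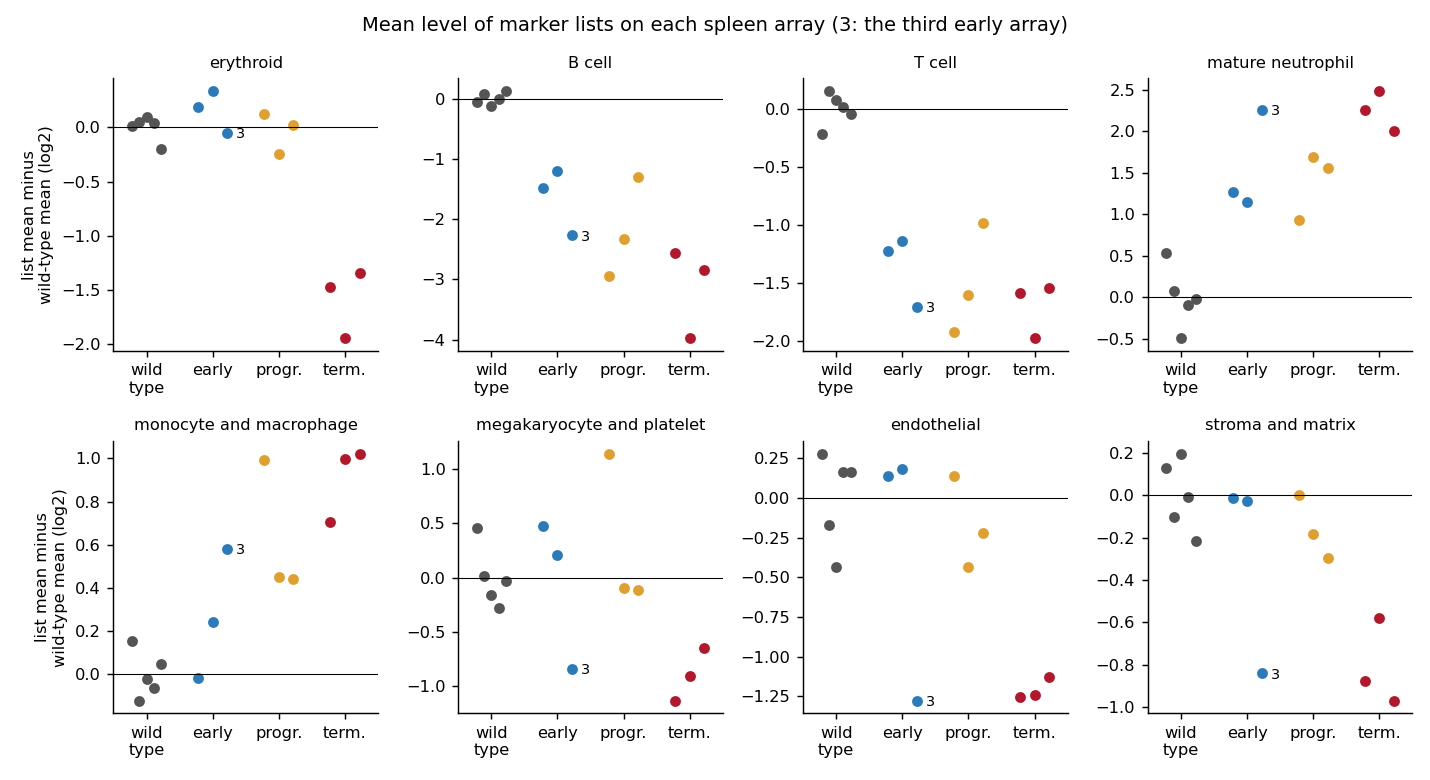
Mean level of 8 marker lists on each of 14 spleen arrays, minus the mean over the 5 wild-type arrays (log2; axes differ between panels); early 3 is marked. In the erythroid panel early 3 is with the other early arrays, and in the neutrophil, megakaryocyte, endothelial and stroma panels it is at the level of the terminal arrays.

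Rises were smaller, and the 15 largest were of genes of many kinds. Podxl, a sialomucin of podocytes, vessels and haematopoietic progenitors, was at 6.33, 6.99 and 5.44 in early and 8.65, 7.11 and 9.65 in terminal spleens, 4.65-fold higher (adjusted p = 0.0302); early 2 and terminal 2 nearly met. A second, dim probe set of Podxl differed by 0.19 ± 0.18. Klra17, a Ly49 family receptor, was at 6.59, 6.53 and 7.26 in early and 9.38, 9.38 and 7.98 in terminal spleens, 4.35-fold higher (adjusted p = 0.00202). Ly49 genes are close copies, so its probe set may read relatives. Grb14, an adaptor that binds the insulin receptor, was at 4.54, 4.49 and 4.97 in early and 6.42, 7.33 and 6.87 in terminal spleens (2.21 ± 0.23, adjusted p = 2.41e-05); it was dim in all early, progression and wild-type arrays. Rin2, a Rab5 exchange factor, rose 2.44-fold (adjusted p = 5.64e-05) and Rpl37, a ribosomal protein gene with many pseudogene copies, 2.52-fold (adjusted p = 4.92e-05). Grb14, Rin2 and Rpl37 were the 3 of the 15 largest rises that stayed past the threshold under all alternatives in which they were tested. Xdh, xanthine dehydrogenase, rose 2.44-fold, and Fabp5, a fatty acid binding protein, 2.61-fold. Apoc2 and Serpinf1, secreted proteins of lipid transport and of vessel growth control, rose by 1.40 ± 0.37 and 1.27 ± 0.28. Slfn4 and Slfn1, Schlafen genes of myeloid and lymphoid cells, rose by 1.39 ± 0.34 and 1.32 ± 0.29, with early 3 the highest early array of both. Gpr35, a G protein-coupled receptor, rose by 1.36 ± 0.35, and Sh2b2, a signalling adaptor, by 1.36 ± 0.24, although a second probe set of Sh2b2 differed by 0.12 ± 0.13.

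In the mature neutrophil list 1 of 26 genes passed, a share close to the 2.73% of all genes called higher, while all 26 differences were above 0 at a median of 0.74. The gene was Cxcr2, the chemokine receptor of neutrophils, at 7.63, 8.00 and 9.06 in early and 9.85, 10.43 and 9.42 in terminal spleens (1.67 ± 0.35, adjusted p = 0.0125). Early 3 again lay close to the terminal arrays, and for all 26 genes it was nearer to the terminal mean than to early 1 and 2. Without it, 12 of the 26 were higher, at a median of 1.12, beside 9.26% of all genes; with months of tamoxifen as covariate limma called none (0 higher and 1 lower at an unadjusted p under 0.05), at a median of 0.08. In wild type 1, at 24 months, 22 of the 26 genes lay above all other wild-type spleens, as did 36.1% of all genes. The slope on months in the fit above rests largely on this array. Itgam, the integrin CD11b, differed by 1.20 ± 0.36 (adjusted p = 0.0592) and Csf3r, the receptor for G-CSF, by 0.74 ± 0.23 (adjusted p = 0.0679). S100a8, a calcium-binding protein of neutrophils, was between 14.60 and 14.77 in these 6 arrays and differed by 0.05 ± 0.14.

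Other myeloid lists gave few calls, read beside 2.73% of all genes called higher. Of 11 primary granule genes Ctsc, the protease that activates granule enzymes, rose by 1.09 ± 0.25 and Mpo differed by 0.20 ± 0.38. Of 26 monocyte and macrophage genes Lgals3, galectin 3, was at 12.28, 12.36 and 12.88 in early and 13.10, 13.31 and 13.21 in terminal spleens (0.70 ± 0.18, adjusted p = 0.0328); 10 of the 26 were higher and 1 lower without early 3, beside 9.26% and 8.14% of all genes. Spi1, the myeloid factor PU.1, was at 9.86, 9.65 and 10.56 in early and 10.88, 11.00 and 10.92 in terminal spleens, 1.88-fold higher (adjusted p = 0.0195). Csf2rb, the shared receptor chain for GM-CSF, interleukin 3 and interleukin 5, rose by 1.23 ± 0.32, although terminal 1 lay below early 3. Cst7, Cst3 and Slc11a1, an inhibitor of cathepsins in cytotoxic and myeloid cells, its widely expressed relative and a metal transporter of macrophages, rose by 0.81 ± 0.19, 0.72 ± 0.19 and 0.81 ± 0.17.

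No gene of the G1/S and G2/M lists passed the threshold as higher. Of 30 G2/M genes 5 fell and none rose (median -0.20), and of 29 replication genes 1 fell (median -0.18), beside 3.88% of all genes called lower. Mki67, the proliferation antigen Ki-67, was at 13.38, 13.52 and 12.85 in early and 12.49, 12.38 and 12.60 in terminal spleens, 1.69-fold lower (adjusted p = 0.00902). Cenpf, a kinetochore protein, was at 10.62, 10.92 and 10.45 in early and 9.50, 9.69 and 9.63 in terminal spleens, 2.08-fold lower (adjusted p = 0.00186). The stages did not overlap in either gene, and both were lower in terminal than in wild-type spleens (-0.45 and -0.65). Against wild type 10 of the 30 G2/M genes were higher and 5 lower in terminal spleens, at a median of 0.22, beside 18.1% of all genes called higher and 16.3% lower. Nusap1 and Ube2c, a spindle protein and a ubiquitin enzyme of mitotic exit, and Birc5, survivin, fell by 0.77 ± 0.13, 0.63 ± 0.11 and 0.62 ± 0.15. Rrm2, the ribonucleotide reductase subunit made in S phase, fell by 0.69 ± 0.17 (adjusted p = 0.0309). The erythroid list mean was low on the same 3 terminal arrays, and its part in these falls was not tested. With months of tamoxifen as covariate none of the 30 G2/M genes passed limma's threshold (2 higher and 4 lower at an unadjusted p under 0.05, median -0.13); without early 3, 8 were lower, beside 8.14% of all genes.

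**Figure D5:**
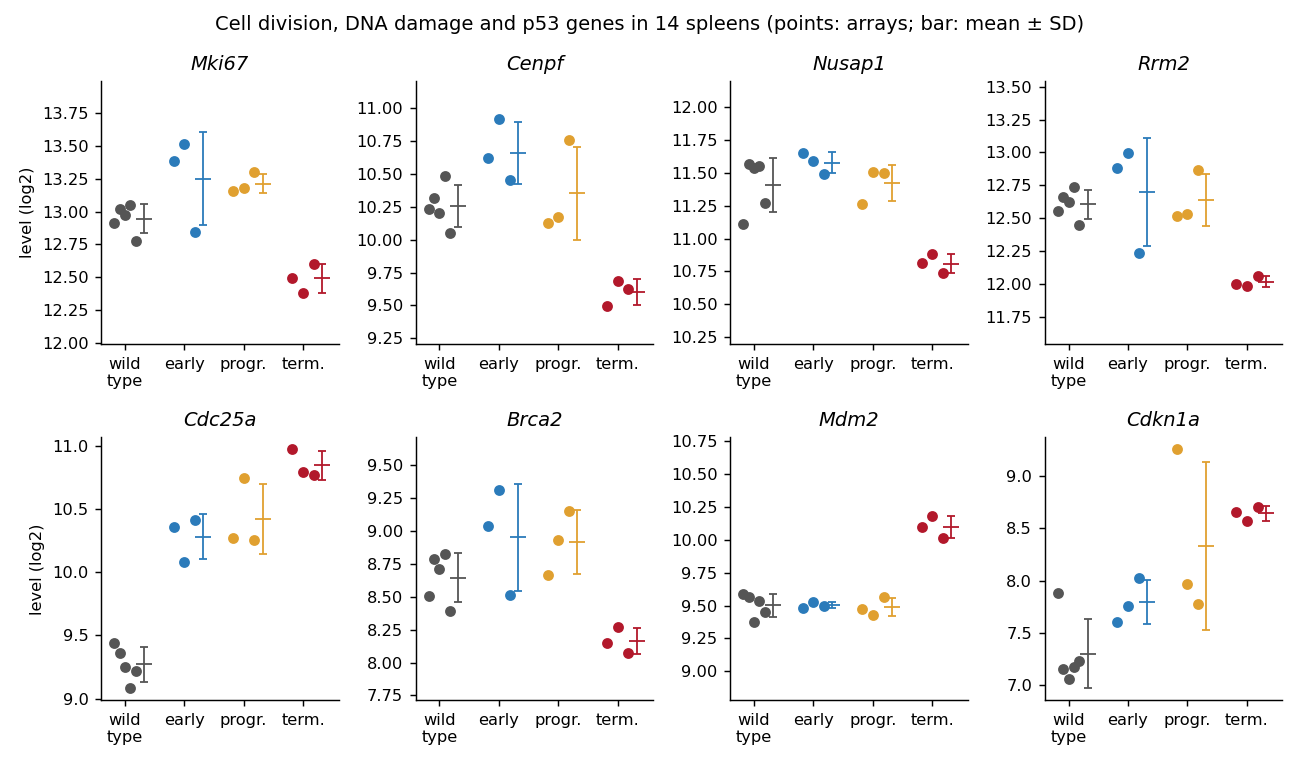
Level (log2, axes differ between panels) of genes of cell division, the DNA damage response and the p53 pathway on each of 14 spleen arrays, with mean ± SD beside the points. Mki67, Cenpf, Nusap1, Rrm2 and Brca2 were below all early arrays on the terminal arrays, and Cdc25a, Mdm2 and Cdkn1a were above them, Cdkn1a without passing the threshold.

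Of 25 DNA damage response genes 2 fell and 1 rose (median 0.06), beside 3.88% and 2.73% of all genes. Brca2, of homologous recombination, was at 9.04, 9.31 and 8.51 in early and 8.15, 8.27 and 8.07 in terminal spleens (-0.79 ± 0.19, adjusted p = 0.0271). Trp53bp1, which marks double strand breaks, fell by 1.05 ± 0.26 (adjusted p = 0.0273). Cdc25a, the phosphatase that Chek1 inhibits, was at 10.35, 10.08 and 10.41 in early and 10.97, 10.79 and 10.77 in terminal spleens (0.56 ± 0.15, adjusted p = 0.0409). Chek1, the checkpoint kinase, differed by 0.22 ± 0.15 (adjusted p = 0.387), with overlapping arrays.

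Of 25 p53 targets 1 rose and 2 fell (median 0.07), beside 2.73% and 3.88% of all genes. Mdm2, the ubiquitin ligase that p53 induces and that degrades p53, was at 9.48, 9.53 and 9.50 in early and 10.10, 10.18 and 10.02 in terminal spleens, 1.51-fold higher (adjusted p = 0.00206). It was between 9.38 and 9.59 in wild-type and between 9.42 and 9.56 in progression spleens, so that terminal spleens alone lay above. Sesn1, a stress-induced inhibitor of mTORC1, was at 10.72, 10.66 and 10.17 in early and 9.47, 8.95 and 9.23 in terminal spleens, 2.47-fold lower, and Gadd45a fell by 1.19 ± 0.26. Cdkn1a, the cell cycle inhibitor p21, was at 7.60, 7.76 and 8.02 in early and 8.66, 8.57 and 8.70 in terminal spleens. The stages did not overlap, but progression 1 reached 9.26, and the difference of 0.85 ± 0.31 did not pass (adjusted p = 0.114); it passed in a fit of the 6 arrays alone, with array weights and without progression 1.

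Of 26 senescence regulators 2 fell, beside 3.88% of all genes: Igfbp7 above and Rb1, the retinoblastoma protein that holds cells out of S phase, at 10.72, 10.72 and 10.51 in early and 9.79, 9.99 and 9.92 in terminal spleens (-0.75 ± 0.15, adjusted p = 0.00813). Cdkn2a, which encodes p16 and p19, was at 5.62, 4.65 and 4.21 in early and 6.83, 4.68 and 4.78 in terminal spleens (0.60 ± 0.50, adjusted p = 0.496). Terminal 1 alone stood above the others.

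Genes of the fusion itself did not differ past the threshold. Esr1, whose hormone-binding part the transgene carries, was at 7.71, 7.66 and 7.08 in early and 7.22, 7.38 and 7.42 in terminal spleens (-0.14 ± 0.22), against 4.70 to 5.48 in wild-type spleens. Kmt2a and Mllt1 differed by -0.43 ± 0.24 and 0.37 ± 0.15. Against wild type Kmt2a differed by -0.48 in early and -0.91 in terminal spleens, and Mllt1 by 0.22 and 0.59. Whether the probe sets of these genes read the fusion transcript was not tested. Hoxa9 was at 10.46, 9.74 and 10.63 in early and 8.89, 11.20 and 9.78 in terminal spleens (-0.32 ± 0.46), against 4.73 to 6.02 in wild-type spleens. The terminal arrays spanned the early ones. Meis1 differed by 0.19 ± 0.17. Of 18 MLL fusion targets 1 fell, beside 3.88% of all genes. It was Lmo2, a partner of Tal1 and Gata1 in red cells, at 12.32, 12.21 and 12.15 in early and 11.60, 11.35 and 11.49 in terminal spleens (-0.75 ± 0.12, adjusted p = 0.00110).

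Of 30 interferon-induced genes 2 fell, beside 3.88% of all genes. Rsad2, viperin, was at 13.63, 13.82 and 13.92 in early and 12.34, 11.48 and 11.98 in terminal spleens, 3.61-fold lower (adjusted p = 4.64e-05), and both other probe sets of Rsad2 differed by -2.83 and -2.18. Ifit1 fell by 1.62 ± 0.45 (adjusted p = 0.0469). The list median was 0.08, so these falls were not shared by most members. Of 43 inflammatory genes 2 rose, beside 2.73% of all genes: Myd88, the adaptor of Toll-like receptors, by 0.92 ± 0.18 and Tnf by 0.76 ± 0.19, the latter with terminal 3 at 6.99 beside early 3 at 6.98. Il6 and Il10 were dim in both stages and differed by 0.39 ± 0.56 and 0.44 ± 0.43.

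In genes of vessels, stroma and platelets the count of calls rose when early 3 was left out. Of 28 endothelial genes 1 was lower, of 33 stroma and matrix genes 3, and of 20 megakaryocyte and platelet genes 1; without early 3 the counts were 19, 10 and 12. Of all genes 3.88% were called lower, and 8.14% without early 3. Aqp1, a water channel of red cells as well as vessels, was the endothelial member, at 12.45, 12.50 and 11.98 in early and 10.14, 9.66 and 10.61 in terminal spleens, 4.51-fold lower (adjusted p = 1.51e-05). Cdh5, the cadherin of endothelial junctions, was at 6.69, 6.72 and 4.11 in early and 4.19, 4.09 and 4.62 in terminal spleens. Early 3 was at the terminal level for Cdh5 and nearer the early level for Aqp1. Col4a1, Bgn and Col6a3, matrix genes, fell by 1.84 ± 0.46, 1.69 ± 0.44 and 1.11 ± 0.31, and Itgb3, the platelet integrin chain, by 0.53 ± 0.13. The calls of Col4a1, Bgn, Col6a3 and Itgb3 were kept without early 3 and lost without early 1 and without early 2. Of 27 immediate early genes, which respond to handling of tissue, none passed limma's threshold (5 higher and 1 lower at an unadjusted p under 0.05): Fos was at 7.48, 7.34 and 12.87 in early and 10.89, 12.87 and 11.02 in terminal spleens, Myc differed by 0.50 ± 0.14 (adjusted p = 0.0549) and Junb by 1.55 ± 0.54 (adjusted p = 0.0971). Of 22 pancreas genes none passed limma's threshold, nor an unadjusted p under 0.05, with the smallest p for Klk1 (-0.28 ± 0.19) and Reg2. The other probe sets of Klk1, less bright over the spleen arrays, differed by -2.09 ± 0.86 and -2.21 ± 0.83. Of 22 adipocyte and muscle genes the dim Tnnc2 fell by 0.59 ± 0.13. Of 4 sex-linked genes none passed limma's threshold. Eif2s3y differed by -4.61 ± 2.05 (adjusted p = 0.182), the largest fall over all genes, and Kdm5d by -2.50 ± 1.39 (adjusted p = 0.290). Both were dim in terminal spleens, where Xist was high on all 3 arrays.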

How the data were processed

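RNA from spleens was hybridised to Affymetrix mouse arrays. The deposited log2 values are probe set summaries that the authors made with RMA, affy and limma, per the submitters' processing notes; versions and settings are not given in the sources used here. Of 22690 probe sets, 20393 had 1 gene symbol in the platform annotation, and a gene was the brightest of its probe sets over the spleen arrays; none was filtered out. Trp53 had no probe set with 1 symbol and was not analysed here.

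A limma 3.58.1 model (R 4.3.3) of the 14 spleen arrays in 4 groups gave the contrast terminal minus early, with Benjamini-Hochberg adjustment over all 12394 genes and a threshold of 0.05; differences are ± SE of the fit. The median SE was 0.17, and the number of arrays limits the precision. Folds are left out where a group's mean came within 1 unit of the highest lower quartile of the arrays (4.81). No arrays were identical. Nothing says that arrays share an animal.

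Members and lists were chosen with earlier results of these data known. Named are the 15 largest rises and falls past the threshold without placeholder symbols and antigen receptor segments, up to 6 called members of each list with the smallest p (2 where none passed), and 12 genes of the fusion and its pathways; other members are named to complete a group and were chosen after their values were seen. List symbols were matched to RefSeq names. Promoters are RefSeq's. Alternatives were other normalization, filter, probe set rule, arrays in the fit, variance model, replicate block, Xist, Gapdh difference or months as covariates, and each array left out. Counts of list members and medians under these, and list means per array, were added after seeing the data. Figures used matplotlib 3.10.9 (Python 3.11.15).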

Additional observations from a re-analysis of the deposited data

Results flagged for a closer look

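In 69 sets of values over the 5 wild-type spleens, 6 had 1 array far from the other 4, where chance gives about 1 in 20. The interferon-induced list mean, relative to the wild-type mean, was 0.19 in wild type 4 against -0.08 to -0.01 in the others. The erythroid list mean was -0.20 in wild type 5 against 0.01 to 0.10. Klra17 was at 7.04 in wild type 5 against 6.42 to 6.51. Igfbp7 was at 10.03 in wild type 3 against 10.70 to 10.90. Cdkn1a was at 7.88 and Il10 at 6.05 in wild type 1, the mouse at 24 months, against 7.05 to 7.23 and 4.21 to 4.36 in the others. These wild-type arrays enter the terminal against early difference only through the estimate of the spread.

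Outside the gene table, 89 of 2246 probe sets without 1 gene symbol passed limma's threshold between terminal and early spleens (3.96%), 39 higher and 50 lower. They are not named.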

How the results depend on the processing

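The counts of 338 higher and 481 lower genes moved with the processing; no gene was called in opposite directions. Higher genes numbered 225 after quantile normalization, 542 when dim genes (below the median) were left out, 29 with only 6 arrays, 163 in 1 fit over 29 arrays, 1906 with array weights, 90 with Xist and 94 with the Gapdh difference as covariate, 29 in Xist-high arrays and 36 with months. Lower genes numbered 222 with only 6 arrays, 1565 with array weights, 209 in Xist-high arrays and 146 with months. The replicate block gave 53 higher and 299 lower. Deviations from the stage mean in same-numbered early and terminal arrays correlated at r = 0.12, -0.32 and -0.24. With 3 arrays in each stage these values cannot decide whether the numbers pair the arrays. Leaving out 1 array gave 41 to 1148 higher and 273 to 1009 lower genes. Lower genes made up 58.7% of calls, 70% after quantile normalization and 45.5% without dim genes. Of 72 named genes past the threshold, 18 kept it under all alternatives that tested them, among them 11 of the 15 largest falls and 3 of the 15 largest rises; none changed sign. Erythroid genes called lower ranged from 15 to 31 of 32. Causes were not tested. A lower group near background limits Grb14, Sh2b2, Cr2, Sowaha, Ebf1, Fcer2a, Cxcr5, Ifit1, Ackr3, Col4a1, Bgn, Col6a3, Itgb3 and Tnnc2.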

Other observations

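Cholesterol synthesis genes, a list added after the values were seen, were higher in terminal spleens in 6 of 17 members, with none lower, beside 2.73% of all genes called higher. The median was 0.58, against 0.02 over all genes. Fdps, which makes farnesyl diphosphate, was at 8.88, 9.02 and 9.70 in early and 10.83, 10.92 and 9.88 in terminal spleens, 2.54-fold higher (adjusted p = 0.0206). Msmo1, a sterol demethylating oxidase, was at 6.65, 6.44 and 7.72 in early and 8.56, 8.19 and 7.87 in terminal spleens (1.27 ± 0.30, adjusted p = 0.0240). Early 3 and terminal 3 lay close to each other in both genes. Sqle, squalene epoxidase, rose by 0.86 ± 0.22, Idi1 by 0.75 ± 0.20, Sc5d by 0.70 ± 0.20 and Mvd by 0.68 ± 0.18. Hmgcs1, of the pathway's entry, differed by 0.52 ± 0.15 (adjusted p = 0.0567). Relative to the wild-type mean, the list stood at -0.12, -0.05 and 0.02 in early, 0.09, -0.02 and 0.13 in progression and 0.73, 0.52 and 0.34 in terminal spleens, and all 3 terminal arrays lay above all other spleens. Between 0 and 12 members were called over the alternatives, with medians from 0.46 to 0.64. Wild type 1, at 24 months, differed from the other wild-type spleens by a median of -0.11.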
